A study of Mus musculus with 1307 samples.

Results

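The genes described here make, break down, carry and bind retinoic acid, and they are 9 of the 46517 genes in the count table of a single-cell RNA-seq series of mouse heart. They were chosen by name, with earlier results of these data already known. They are the retinaldehyde dehydrogenases Aldh1a1, Aldh1a2 and Aldh1a3 and the retinoic acid hydroxylases Cyp26a1 and Cyp26b1. The others are the retinol carrier Rbp4, its membrane receptor Stra6, and the cellular binding proteins Crabp1 and Crabp2. All 9 were found in the table. Retinol travels bound to RBP4, can enter cells through STRA6, and is oxidised to retinaldehyde and then, by the ALDH1A enzymes, to retinoic acid. Retinoic acid is the ligand of the nuclear receptors RARA, RARB and RARG, which pair with RXR receptors on DNA, while CYP26 enzymes clear it and CRABP proteins bind it in the cytosol. In the heart the pathway is best known from development, where the epicardium makes retinoic acid through ALDH1A2.

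The series is a catalogue of smooth muscle cells in which cells of dissociated hearts were sorted singly into plates and sequenced by Smart-Seq2, a full-length method that counts reads rather than molecules. The cells came from 3 mice of the double-reporter strain ACTA2GFP:CSPG4dsRED (368 cells of mouse 1, 245 of mouse 2 and 336 of mouse 3) and from C57BL/6 mouse 1 (347 cells), with 11 more cells from C57BL/6, CSPG4dsRED and ACTA2GFP animals. The reporters are named for Acta2, smooth muscle actin, and Cspg4, a mural cell proteoglycan, and no animal was treated. All animals were 8 to 30 weeks old, and double-reporter mice 1 and 2 and the C57BL/6 mouse were labelled male and double-reporter mouse 3 female, although the design text speaks of males. The median depth per cell was 340988, 220866 and 208888 reads in double-reporter mice 1, 2 and 3 and 307957 reads in the C57BL/6 mouse. Each of these 4 mice filled a plate of its own, so mouse and plate cannot be told apart, and the sort gate is not given in the sources used here.

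Cell classes were rebuilt by clustering with the 9 genes, their pathway lists and the class markers withheld, and were then named from the markers. Valve fibroblast-like cells (68, 63 and 28 cells of double-reporter mice 1, 2 and 3) had 9 of 10 fibroblast and 5 of 6 valve markers at 100 CPM (reads per 1000000 reads) or more. The valve markers summed to 8147 CPM in them and to 821 CPM in matrix fibroblast-like cells. In fibroblast-like cluster 12 they summed to 2828 CPM, with 2 of 6 at 100 CPM or more. The matrix markers were high in both the valve and the matrix type, at 5352 and 4681 CPM with 5 of 6 at 100 CPM or more, so the valve name rests on the valve markers. Interstitial fibroblast-like cells (1, 9 and 112), matrix fibroblast-like cells (3, 27 and 93) and fibroblast-like cluster 12 (3, 13 and 5) and cluster 13 (15 cells of mouse 3) had all 10 fibroblast markers at that level. The interstitial type, the matrix type and cluster 12 each had 6 of 6 interstitial markers at that level, summing to 9235, 4816 and 4386 CPM. Cluster 13 had 5 of 6 interstitial markers (6763 CPM) and 5 of 5 adventitial fibroblast markers (10708 CPM) at that level. Matrix markers summed to 996 CPM in the interstitial type and 4681 CPM in the matrix type, so these types differ in degree. Smooth muscle-like cells formed cluster 2 (76, 57 and 18) and cluster 7 (49, 20 and 4), both with all 8 smooth muscle markers, and pericyte-like cells (49, 13 and 9) had all 8 pericyte markers. Cluster 2 also had 7 of 8 pericyte markers at 100 CPM or more (8201 CPM, beside 23436 CPM in pericyte-like cells). Pericyte-like cells also had 5 of 8 smooth muscle markers (2703 CPM) and 5 of 10 fibroblast markers (2445 CPM) at that level. Schwann-like cells (34, 12 and 18, and 12 in the C57BL/6 mouse) had 8 of 9 Schwann markers (12026 CPM) and 4 of 10 fibroblast markers (3623 CPM) at that level. Endothelial-like clusters 0 and 10 held 182 and 63 cells of the C57BL/6 mouse, so the endothelium was seen almost wholly in 1 animal of another genotype. Cluster 5 (78, 21 and 2 cells) carried 8 of 10 fibroblast, 8 of 8 smooth muscle and 7 of 8 pericyte markers and was left unnamed, as were clusters 9 and 14 (66 and 11 cells of the C57BL/6 mouse), with endothelial and either endocardial or lymphatic markers.

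The sequence just upstream of Cyp26a1 is shown because this gene is a textbook target of the acid that its enzyme clears. Retinoic acid receptors bind pairs of hexamers in direct repeat, of which the form with a spacer of 5 bases is the best known. The 250 bases before the start (chr19:37697558-37697807, plus strand, GRCm38.p6, RefSeq) hold 1 such repeat, marked by capitals:
Cyp26a1 upstream: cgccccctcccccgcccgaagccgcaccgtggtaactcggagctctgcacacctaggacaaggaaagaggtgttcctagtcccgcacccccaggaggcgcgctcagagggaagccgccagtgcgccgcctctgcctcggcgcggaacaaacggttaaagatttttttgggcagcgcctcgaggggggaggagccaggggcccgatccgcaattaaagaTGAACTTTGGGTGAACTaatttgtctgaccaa
It lies 32 to 16 bases before the RefSeq start (chr19:37697776-37697792) and reads on the strand opposite to the gene. That start, base 37697808, lies downstream of the GENCODE gene start, base 37697798. Rarb, a retinoic acid receptor gene, had the only other match among the pathway genes with a window, 53 to 37 bases before its start and on the gene's own strand (chr14:16575513-16575529, minus strand). Read along the repeat, with the hexamers in capitals, the pair compare as follows:
Cyp26a1 element: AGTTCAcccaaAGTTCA
Rarb element: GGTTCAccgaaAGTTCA
The search took a hexamer (AGGTCA in its usual form, or AGTTCA, or else GGGTCA, or else GGTTCA), a spacer of any 5 bases and another such hexamer, on both strands. Such a repeat stood in 32 of 32851 promoter windows of 300 bases, or 0.0974%, and in 1 of the 12 windows found for 7 of the member genes. A match describes letters and not binding.

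Low read numbers needed care before shares of positive cells were read. On the plate of mouse 2, 3 cells held 7022 reads of the mesothelial genes Msln and Upk3b, and 60 of the other 242 cells held 1 to 5 reads, 108 in all. Of these 60 cells, 59 sat in a plate row or column of the 3 rich wells, where 64.8% of 91 cells had a read, against 0.662% of the 151 cells elsewhere on that plate and 0 of 1062 cells of other mice. Of the 9 members, 7 had a rich cell (200 reads or more), and for each of these 7 low reads were more frequent along its row or column. Among cells with under 5 Aldh1a1 reads, 47.9% of those in a row or column with a rich cell had 1 to 4 reads, against 1.42% of those elsewhere. For Cyp26a1 these shares were 17.2% and 1.71%, and for Aldh1a3, with the smallest ratio, 24.6% and 11.8%. Positive cells are therefore counted below at 5 or more reads, and levels are CPM of the reads summed over the cells of a class in a mouse. Of the 60 cells above, 2 had 5 reads, so this cutoff does not remove the pattern in full. The summed levels keep all low reads, so small values can include reads of this kind.

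Aldh1a1 (chromosome 19, 20492715 to 20643465, plus strand) was found in most Schwann-like and valve fibroblast-like cells. It stood at 1446, 1662 and 2483 CPM in Schwann-like cells of double-reporter mice 1, 2 and 3, and at 1023 CPM in those of the C57BL/6 mouse. It stood at 1098, 832 and 523 CPM in valve fibroblast-like cells of mice 1, 2 and 3. Within each of the 3 mice the Schwann-like value was the larger. Most cells were positive: 30 of 34, 11 of 12 and 17 of 18 Schwann-like cells, and 65 of 68, 56 of 63 and 20 of 28 valve fibroblast-like cells. In mouse 2 the interstitial fibroblast-like cells held 1120 CPM (9 cells), cluster 12 held 994 CPM (13 cells) and the matrix fibroblast-like cells 399 CPM. In mouse 3 the values were 480, 398 (5 cells) and 312 CPM. The valve type thus lay below the interstitial type in mouse 2 and above it in mouse 3, while the matrix type lay below both in each. Cluster 13, with 178 CPM in mouse 3, was the lowest of the fibroblast-like classes.

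Vascular cells held little Aldh1a1. Smooth muscle-like cluster 2 had 20.7, 6.59 and 7.83 CPM in mice 1, 2 and 3, cluster 7 had 58.3 and 12.5 CPM in mice 1 and 2, and pericyte-like cells had 33.8 and 5.17 CPM in mice 1 and 2. The 245 endothelial-like cells of the C57BL/6 mouse had 18.3 CPM. These vascular classes overlapped one another. The unnamed cluster 5 had 354 and 387 CPM in mice 1 and 2, with 66 of 101 cells positive, and all 101 cells also had 5 or more reads of Dcn, the fibroblast proteoglycan decorin. Scrublet, a doublet caller, marked none of the 102 cells of this cluster and 7 cells in all. Aldh1a1 shares 3.06% of its 50-base stretches with other genes, mainly its near copy Aldh1a7, so a small part of its reads could belong there.

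Aldh1a2 (chromosome 9, 71215789 to 71296243, plus strand), the enzyme of the embryonic epicardium, was highest in the mesothelial cells, the surface layer of the heart. The rule for these, Msln plus Upk3b at 200 CPM or more, found 3 cells, all of mouse 2. They held 8049, 6871 and 9612 CPM of the pair, and the highest value outside the rule was 20.5 CPM. All 10 mesothelial markers were at 100 CPM or more, but Msln and Upk3b are among them and were high by the rule itself. The epicardial transcription factor gene Wt1 stood at 565 CPM. The cells also had 4 of 5 adventitial fibroblast markers (5712 CPM) and 4 of 10 fibroblast markers (5887 CPM) at that level. The clustering had placed the 3 cells with the matrix fibroblast-like cells. Aldh1a2 stood at 1360, 1061 and 504 CPM in the 3 cells and at 956 CPM in their sum, against 18.3 CPM in the 112 fibroblast-like cells of the same mouse, a ratio of 52.2. Of these 112 cells 63 were valve cells at 0.536 CPM, and the 9 interstitial cells among them stood at 217 CPM, so the ratio depends on the mix of fibroblasts. With 3 cells of 1 mouse this difference has no test. The same cells held 359, 731 and 330 CPM of Aldh1a1, 1 read of Aldh1a3 and no read of the other 6 members, and 0 reads in their sum allow up to 3.46 CPM. The assay had no molecular barcodes, so such limits cover counting error only.

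Among fibroblast-like cells, Aldh1a2 was carried by some interstitial and matrix cells. Interstitial fibroblast-like cells stood at 217 CPM in mouse 2 (9 cells) and 259 CPM in mouse 3. Matrix fibroblast-like cells stood at 9.92 CPM in mouse 2 and 89.7 CPM in mouse 3. In mouse 3, 46 of 112 interstitial and 18 of 93 matrix cells were positive, with medians of 359 and 326 CPM among the positive cells, so the share of positive cells differed more than the level within them. Valve fibroblast-like cells held 21.2, 0.536 and 81.2 CPM in mice 1, 2 and 3, with 3 of 68, 0 of 63 and 2 of 28 cells positive, and 1 cell gave 79.5% of the reads in mouse 1. Aldh1a1 and Aldh1a2 met in the same cells: 38 of the 50 Aldh1a2-positive interstitial cells of all mice were also Aldh1a1-positive, 76.0%, beside 78.1% of the interstitial cells without Aldh1a2. Schwann-like cells held 0 to 1.09 CPM in the double-reporter mice and 14.5 CPM in the C57BL/6 mouse, where 1 cell gave 98.7% of the reads. The 182 and 63 endothelial-like cells of the C57BL/6 mouse held 1 Aldh1a2 read in all.

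**Figure D1:**
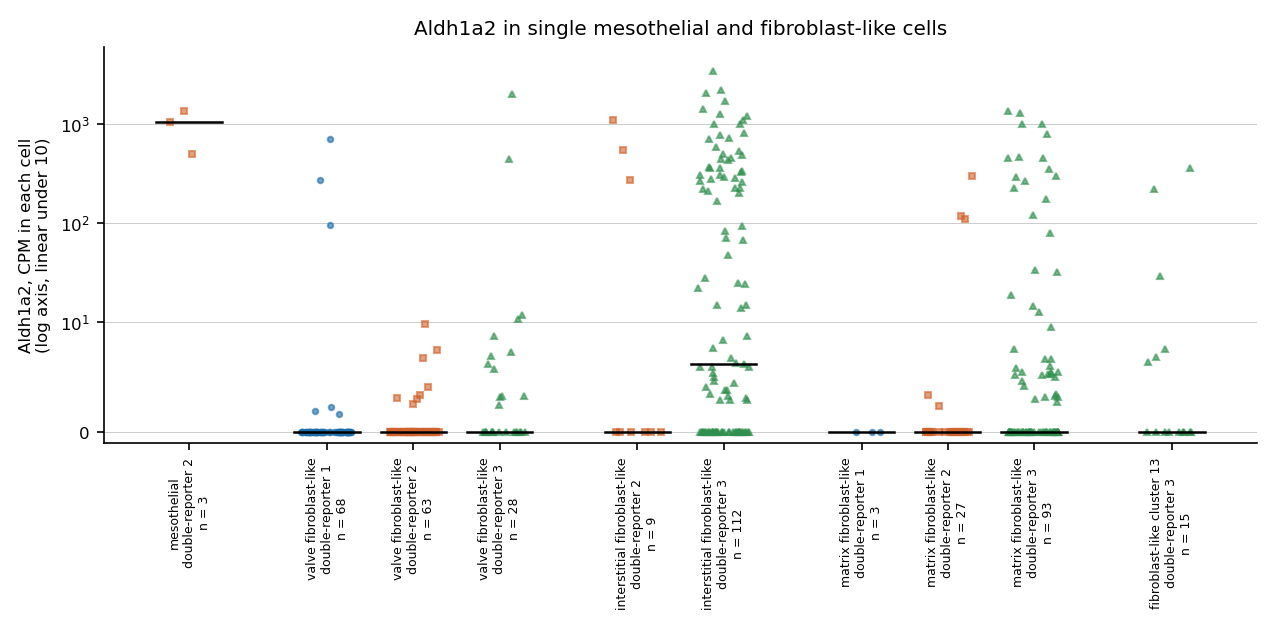
Each point is the Aldh1a2 level of 1 cell in CPM (log axis, linear under 10), by class and mouse, with lines at the medians. The 3 mesothelial cells lie at 504, 1061 and 1360 CPM, within the range of the positive interstitial fibroblast-like cells of mouse 3 (24.7 to 3414 CPM).

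Aldh1a3 (chromosome 7, 66390890 to 66427517, minus strand) was mainly a Schwann-like gene. Schwann-like cells held 674, 498 and 680 CPM in double-reporter mice 1, 2 and 3 and 174 CPM in the C57BL/6 mouse. Positive cells were 26 of 34, 7 of 12 and 9 of 18 in the double-reporter mice and 5 of 12 in the C57BL/6 mouse. Valve fibroblast-like cells held 102, 107 and 54.3 CPM, with 18 of 68, 14 of 63 and 4 of 28 cells positive. Every Schwann-like value was above every valve value. Fibroblast-like cluster 13 held 64.6 CPM in mouse 3 (4 of 15 cells positive), above the valve value of that mouse. Matrix fibroblast-like cells (16.6 and 16.1 CPM in mice 2 and 3), interstitial fibroblast-like cells (1.29 CPM in mouse 3) and smooth muscle-like cluster 2 (0.388 to 2.49 CPM) stood below the valve values. Of the 76 Schwann-like cells of all mice, 70 were positive for Aldh1a1, 47 for Aldh1a3 and 44 for both.

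Cyp26a1 (chromosome 19, 37697798 to 37701536, plus strand), which starts the clearance of retinoic acid, was concentrated in valve fibroblast-like cells. It stood at 224, 209 and 199 CPM in mice 1, 2 and 3, a mean of 211 ± 12.6 CPM (SD, n = 3). Positive cells were 25 of 68, 23 of 63 and 11 of 28, that is 36.8%, 36.5% and 39.3%. In these cells the median was 570, 441 and 331 CPM, while 34, 32 and 17 cells had no read at all. The gene was thus high in a part of the valve cells in each mouse and absent from the counts of many others.

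**Figure D2:**
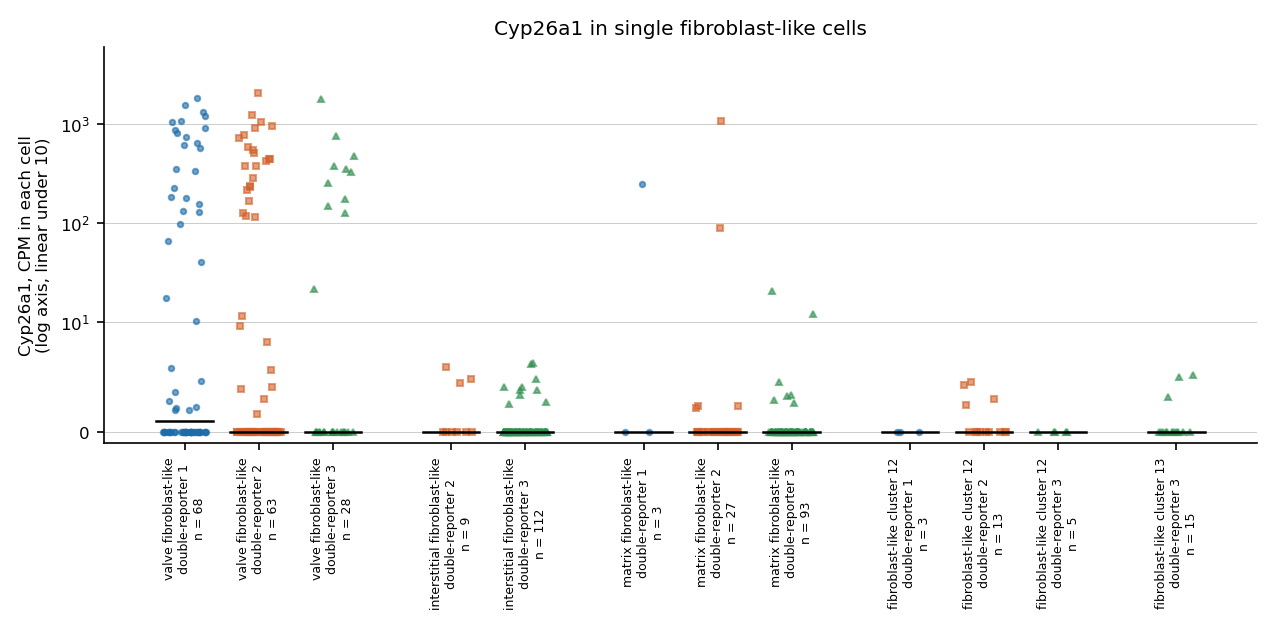
Each point is the Cyp26a1 level of 1 cell in CPM (log axis, linear under 10), by class and mouse, with lines at the medians. Valve fibroblast-like cells divide in each of the 3 mice into cells at or near 0 and positive cells that reach 1844, 2060 and 1802 CPM.

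Outside the valve class, Cyp26a1 came from few cells. Matrix fibroblast-like cells had 57.1 CPM in mouse 2, of which 1 cell gave 91.7%, and 0.441 CPM in mouse 3. Interstitial fibroblast-like cells had 0.407 CPM in mouse 3. Smooth muscle-like cluster 7 had 68.5 CPM in its 4 cells of mouse 3, 1 of which gave 96.4%, against 0.22 and 0.219 CPM in mice 1 and 2. None of the 245 endothelial-like cells of the C57BL/6 mouse had a read, which allows up to 1.22% of cells with a read and sets no limit on cells that express the gene. Within the valve class, 52 of the 141 Aldh1a1-positive cells were Cyp26a1-positive, 36.9%, beside 38.9% of the other 18. For Rarb, whose promoter carried the other repeat, the shares were 46.4% of the 28 Rarb-positive cells and 35.1% of the rest. Cells of 1 mouse share a plate, so these shares are given with no test.

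Cyp26b1 (chromosome 6, 84571414 to 84593908, minus strand), the other clearance enzyme, was low, at most 37.5 CPM in any class of a mouse (cluster 12, 5 cells of mouse 3). Endothelial-like clusters 0 and 10 of the C57BL/6 mouse held 9.04 and 7.41 CPM, with 13 of 182 and 2 of 63 cells positive. Valve fibroblast-like cells held 4.40, 10.5 and 2.03 CPM, with 3, 4 and 1 positive cells in mice 1, 2 and 3. No Schwann-like cell had a read.

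Rbp4 (chromosome 19, 38116629 to 38125281, minus strand), the retinol carrier best known from liver, divided clusters of the same broad class. Fibroblast-like cluster 12 held 1283, 297 and 672 CPM in mice 1, 2 and 3 (3, 13 and 5 cells), with all 3, 12 of 13 and all 5 cells positive. Smooth muscle-like cluster 7 held 160, 114 and 89.7 CPM (49, 20 and 4 cells), against 0.242, 0.291 and 1.07 CPM in cells of cluster 2. In the same mice 15 of 49, 5 of 20 and 2 of 4 cells were positive in cluster 7 and none of 76, 57 and 18 in cluster 2. The cells of the clusters still overlapped, since 26, 13 and 2 cells of cluster 7 had no read. Cluster 7 also had 6 of 10 fibroblast markers at 100 CPM or more, against 2 of 10 in cluster 2. Cluster 12 in turn had 5 of 8 smooth muscle markers at that level. They summed to 3718 CPM, against 460 to 1133 CPM in the other fibroblast-like classes. Clusters 7, 2 and 12 were picked out after their values were seen, so no test is given for them.

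**Figure D3:**
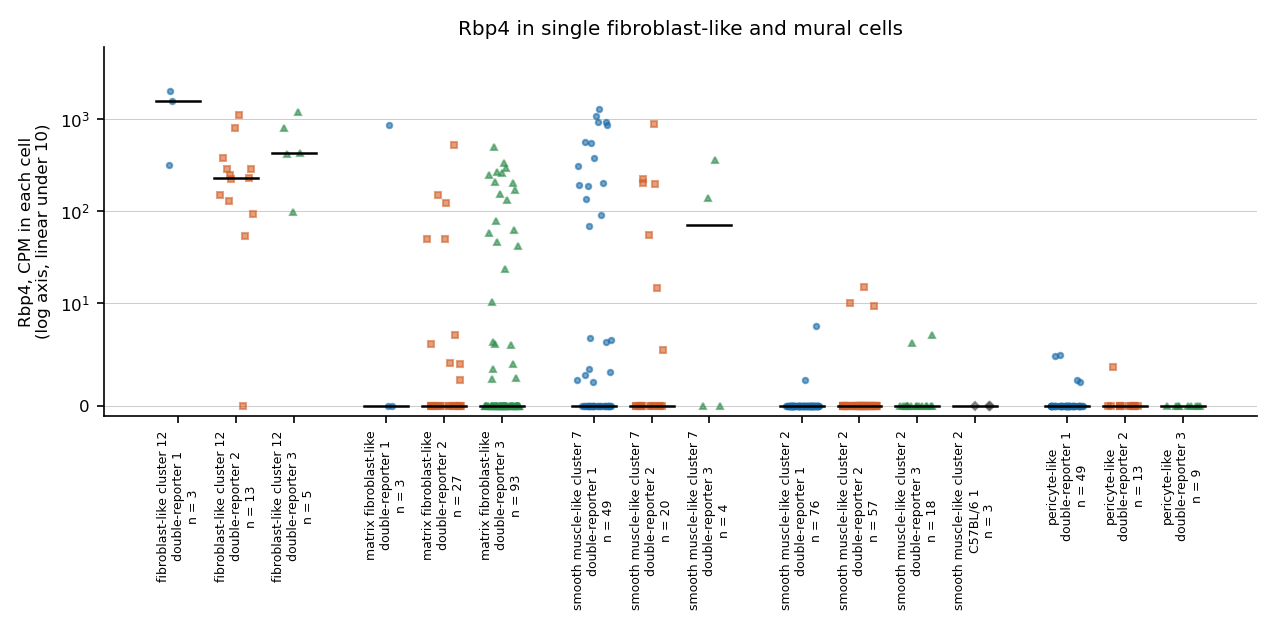
Each point is the Rbp4 level of 1 cell in CPM (log axis, linear under 10), by class and mouse, with lines at the medians. Cells of fibroblast-like cluster 12 and a part of smooth muscle-like cluster 7 reach 1994 and 1289 CPM, and no cell of smooth muscle-like cluster 2 has 5 or more reads.

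Rbp4 was modest in the other fibroblast-like classes, apart from 1 of the 3 matrix fibroblast-like cells of mouse 1 at 859 CPM. Matrix fibroblast-like cells held 37.5 and 34.9 CPM in mice 2 and 3, valve fibroblast-like cells 10.9, 18.2 and 21.2 CPM in mice 1, 2 and 3, and interstitial fibroblast-like cells 5.51 CPM in mouse 3. Pericyte-like cells held 0.334 and 0.647 CPM in mice 1 and 2, and 1 read was seen in all Schwann-like cells. Stra6 (chromosome 9, 58063788 to 58153996, plus strand), the RBP4 receptor, was found mainly in other cells. The unnamed cluster 9 with endocardial markers held 62.8 CPM in the C57BL/6 mouse, from 7 of 66 cells, while the 245 endothelial-like cells of that mouse held 0.146 CPM and no positive cell. The unnamed cluster 14, with lymphatic markers, held 27.2 CPM from 2 of its 11 cells of that mouse. Valve fibroblast-like cells held 11.8, 60.4 and 11.3 CPM of Stra6 in mice 1, 2 and 3, with 5, 8 and 1 positive cells.

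Crabp1 (chromosome 9, 54764748 to 54773110, plus strand) was a Schwann-like gene of few cells. It stood at 79.0, 102 and 61.8 CPM in double-reporter mice 1, 2 and 3. Positive cells were 7 of 34, 2 of 12 and 4 of 18 in these mice and 2 of 12 in the C57BL/6 mouse, and 1 cell gave 92.5% of the reads in mouse 2 and 82.7% in the C57BL/6 mouse. The highest Crabp1 value in any other class was 1.01 CPM. Crabp2 (chromosome 3, 87948666 to 87953376, plus strand) had at most 1 positive cell in any class of a mouse, the highest at 369 CPM in a matrix fibroblast-like cell of mouse 2.

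**Figure D4:**
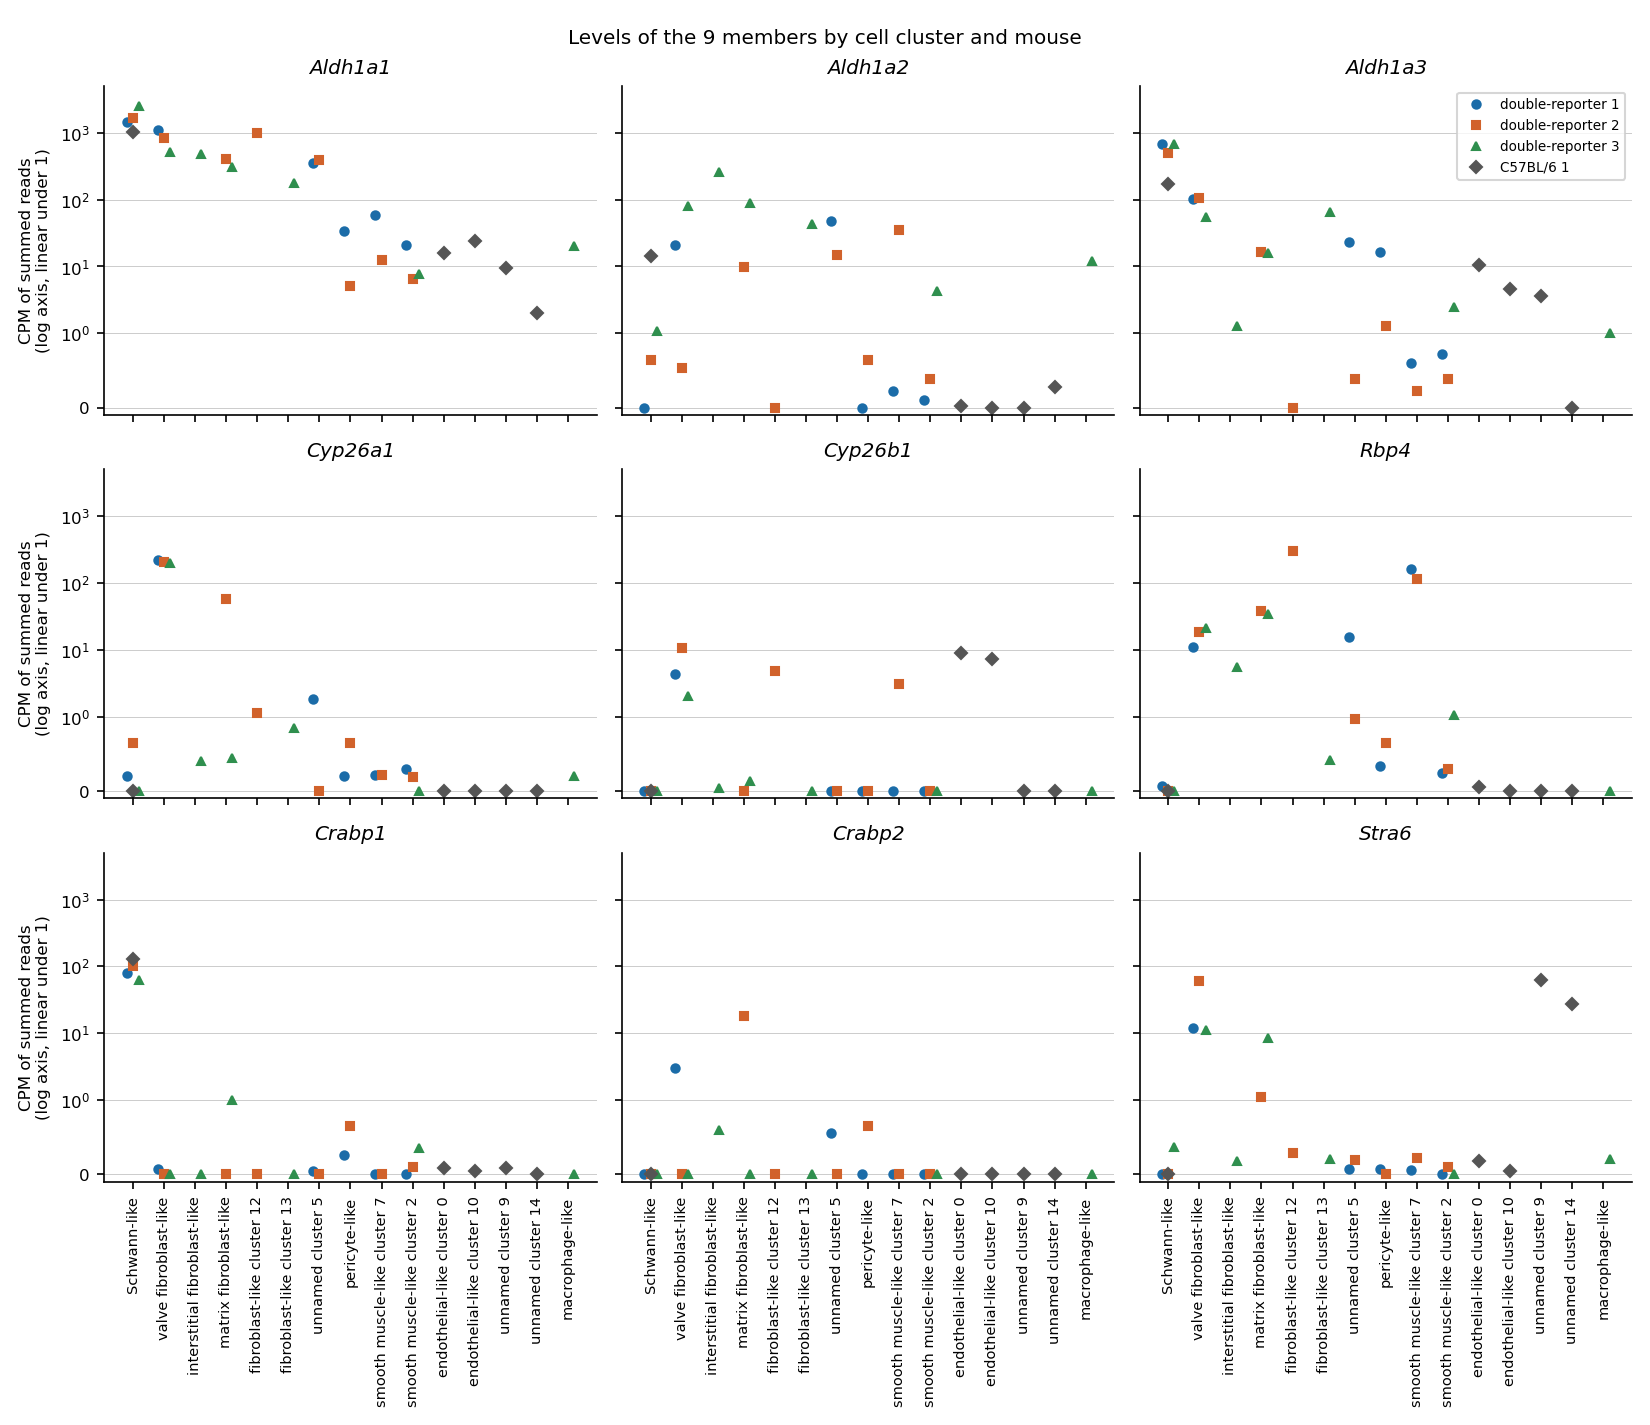
Points are CPM of summed reads for each of the 9 genes (log axis, linear under 1), by cluster and mouse (shapes and colours), where a mouse had 10 or more cells. Aldh1a1, Aldh1a3 and Crabp1 peak in Schwann-like cells (1446 to 2483, 498 to 680 and 61.8 to 102 CPM in the double-reporter mice), Cyp26a1 in valve fibroblast-like cells (199 to 224 CPM) and Rbp4 in fibroblast-like cluster 12.

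Levels of different genes can be set side by side only per kilobase of exon. In Schwann-like cells the mean level was 378 CPM per kilobase for Aldh1a1, 134 for Aldh1a3 and 101 for Crabp1. In valve fibroblast-like cells it was 166 CPM per kilobase for Aldh1a1, 106 for Cyp26a1, 19.0 for Aldh1a3 and 4.77 for Stra6. In interstitial fibroblast-like cells of mouse 3 it was 114 CPM per kilobase for Aldh1a2 and 97.2 for Aldh1a1.

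The first comparison within mice asked how Schwann-like cells differ from fibroblast-like cells, over 3 mice. Reads were summed per class and mouse and tested across all genes with edgeR's quasi-likelihood test, with the mouse as a block and Benjamini-Hochberg adjustment. Of the 14987 genes tested 3.39% were called at an adjusted p under 0.05, 1.61% higher and 1.77% lower in Schwann-like cells, and of the 9 members, 8 passed the filter on low counts and 4 were called, 2 higher and 2 lower. Aldh1a3 was higher, at 674, 498 and 680 CPM in Schwann-like cells against 95.1, 63.1 and 17.3 CPM in fibroblast-like cells (log2 change 3.67 ± 0.60 SE, adjusted p = 0.0346, edgeR). Crabp1 was higher, at 79.0, 102 and 61.8 CPM against 0.0659, 0 and 0.369 CPM (9.77 ± 1.68, adjusted p = 0.0409, edgeR). Crabp1 was near 0 in fibroblast-like cells of every mouse.

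Cyp26a1 was lower in Schwann-like cells, at 0.206, 0.643 and 0 CPM against 210, 130 and 22.4 CPM in fibroblast-like cells (log2 change -9.21 ± 0.97 SE, adjusted p = 0.00805, edgeR). Rbp4 was lower, at 0.0688, 0 and 0 CPM against 61.1, 54.2 and 28.1 CPM (-10.10 ± 1.68, adjusted p = 0.0343, edgeR). With sums at or near 0 on the lower side, the size of the fitted changes of Crabp1, Cyp26a1 and Rbp4 depends on the small count that edgeR adds. Crabp1 passed the filter on low counts in this comparison alone, through its reads in Schwann-like cells, so its call adds nothing to its levels. Cyp26a1 and Rbp4 passed that filter here through their reads in fibroblast-like cells, so their calls add nothing to their levels either. The fibroblast-like mix also moved between mice: 68 of 75 cells were of the valve type in mouse 1 and 28 of 253 in mouse 3, beside the 210 and 22.4 CPM of Cyp26a1. Aldh1a1, at 1446, 1662 and 2483 CPM in Schwann-like cells against 1034, 757 and 399 CPM in fibroblast-like cells, was not called (1.42 ± 0.45, adjusted p = 0.161, edgeR). Aldh1a2 (adjusted p = 0.0786), Cyp26b1 (0.163) and Stra6 (0.168) were not called by edgeR either, and Crabp2 had too few reads to be tested. Aldh1a3 lost its call without mouse 2 (adjusted p = 0.0754, edgeR), Crabp1 without mouse 1 or 2 (0.0615 and 0.0608), and Rbp4 without mouse 1 or 2 (0.22 and 0.0924). With counts under 5 reads set to 0 Aldh1a3, Crabp1 and Rbp4 lost their calls (adjusted p = 0.0609, 0.097 and 0.17, edgeR), as they did in cells of at least 100000 counts and 2000 genes (0.0852, 0.0686 and 0.116). In those deeper cells mouse 2 had 8 Schwann-like cells and did not enter, so depth and the loss of mouse 2 cannot be told apart. Rbp4 also lost its call without the cells called doublets (0.101) and with valve cells alone as the fibroblasts (0.0909). Cyp26a1 kept its call in each alternative run, with an adjusted p of at most 0.0469.

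Of the receptor list, 1 gene was higher in Schwann-like cells. Rxrg, a retinoid X receptor gene, held 621, 359 and 504 CPM in Schwann-like cells against 3.89, 1.24 and 0.738 CPM in fibroblast-like cells (log2 change 8.30 ± 0.59 SE, adjusted p = 0.00388, edgeR). The receptor list had 1 of 18 tested genes higher and 0 lower, with a median log2 change of 0.43 beside -0.58 for all genes. The metabolism list had 0 of 15 genes higher, and the list of retinoic acid responsive genes 0 of 14 higher, with medians of -0.10 and -0.38.

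The second comparison set fibroblast-like against smooth muscle-like cells in the same 3 mice. Of 16095 genes 5.35% were called, 2.70% higher and 2.65% lower in fibroblast-like cells, and 7 of the 9 members were tested, of which 2 were called, both higher. Aldh1a1 held 1034, 757 and 399 CPM in fibroblast-like cells against 38.3, 8.39 and 8.30 CPM in the smooth muscle-like class (log2 change 5.59 ± 0.44 SE, adjusted p = 0.00733, edgeR). Stra6 held 10.8, 33.5 and 4.48 CPM against 0.0257, 0.134 and 0 CPM, which are 1, 2 and 0 reads (8.26 ± 1.19, adjusted p = 0.0254, edgeR). Stra6 passed the filter on low counts through its reads in fibroblast-like cells, so its call adds nothing to its levels. Stra6 lost its call without mouse 1 or 2 (adjusted p = 0.167 and 0.256, edgeR) and with counts under 5 reads set to 0 (0.151).

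Cyp26a1, at 210, 130 and 22.4 CPM in fibroblast-like cells against 0.257, 0.201 and 15.2 CPM in the smooth muscle-like class, was not called (log2 change 7.33 ± 2.86 SE, adjusted p = 0.244, edgeR), and was called without mouse 3, where 1 smooth muscle-like cell gave 96.4% of the reads (adjusted p = 0.00793, edgeR). Aldh1a3, at 95.1, 63.1 and 17.3 CPM against 0.669, 0.336 and 2.21 CPM, was not called (6.06 ± 1.30, adjusted p = 0.0704, edgeR), but was with counts under 5 reads set to 0 (0.0405) and without mouse 3 (0.0103). Rbp4, at 61.1, 54.2 and 28.1 CPM against 75.2, 35.3 and 20.8 CPM, overlapped between the classes (0.24 ± 0.37, adjusted p = 0.799, edgeR). With valve fibroblast-like cells alone as the fibroblasts its change turned to -1.22. Rarg, a retinoic acid receptor gene, was higher at 169, 149 and 84.3 CPM in fibroblast-like cells and at 35.7, 34.9 and 13.8 CPM in the smooth muscle class (2.29 ± 0.26, adjusted p = 0.0164, edgeR). Nr2f2, an orphan nuclear receptor gene, was lower at 33.8, 62.9 and 42.4 CPM against 228, 222 and 145 CPM (-2.13 ± 0.29, adjusted p = 0.0235, edgeR), and Btg2, an antiproliferative gene, was lower at 250, 371 and 629 CPM against 846, 902 and 1349 CPM (-1.40 ± 0.18, adjusted p = 0.0223, edgeR). Among the lists, 1 of 18 metabolism genes (Aldh1a7), 1 of 18 receptor genes and 0 of 17 responsive genes were higher and 0, 1 and 2 lower, with medians of 0.29, 0.27 and -0.31 beside 0.17 for all genes. Aldh1a7 held 21.5, 6.44 and 2.44 CPM in fibroblast-like cells against 0.0515, 0 and 0 CPM. It passed the filter on low counts through its reads in fibroblast-like cells, so its call adds nothing to its levels.

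**Figure D5:**
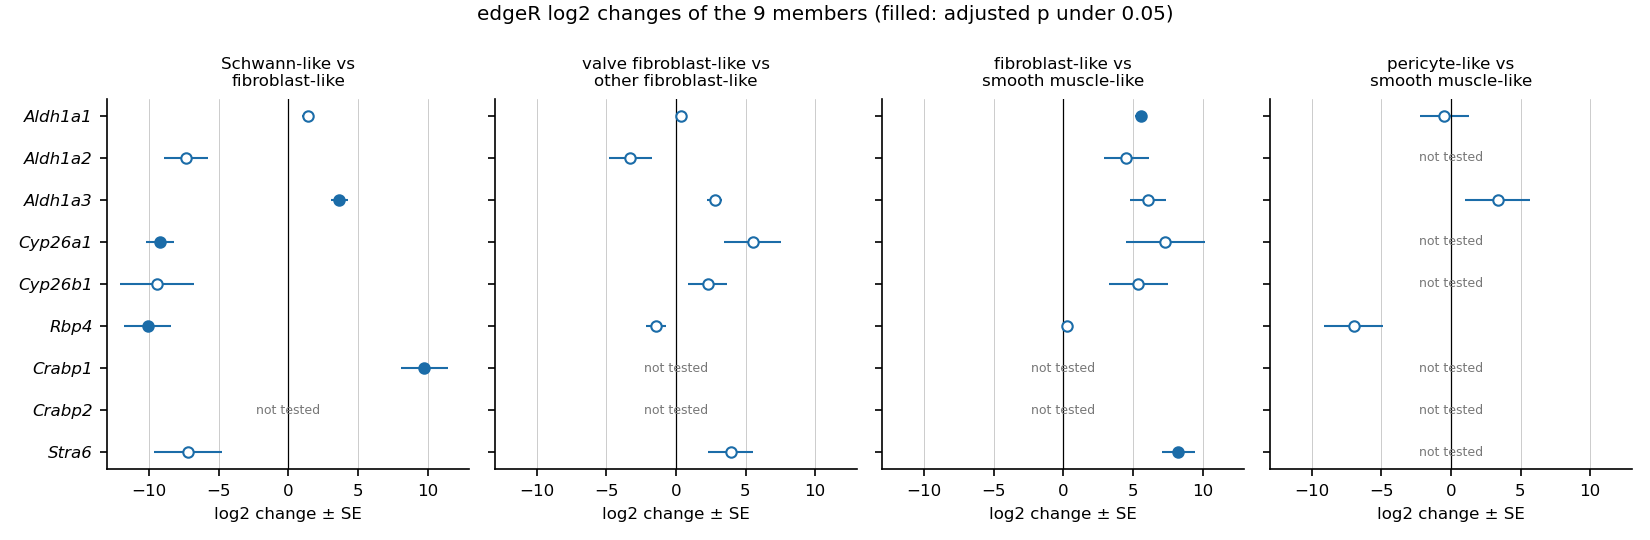
Points are edgeR log2 changes of the 9 genes with SE bars in the 4 tested comparisons, the first-named class over the second, and filled points have an adjusted p under 0.05. Schwann-like cells have 4 filled points, from -10.10 (Rbp4) to 9.77 (Crabp1), and fibroblast-like over smooth muscle-like cells 2, Aldh1a1 at 5.59 and Stra6 at 8.26. Of the filled genes, Crabp1, Cyp26a1, Rbp4 and Stra6 passed the filter on low counts through the class where they are high.

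The third comparison set valve fibroblast-like against other fibroblast-like cells in mice 2 and 3, the mice with 10 or more cells of both. Aldh1a3 held 107 and 54.3 CPM in valve cells against 9.81 and 12.7 CPM in the others (log2 change 2.78 ± 0.55 SE, adjusted p = 0.296, edgeR). Cyp26a1 held 209 and 199 CPM against 33.9 and 0.451 CPM (5.52 ± 2.03, adjusted p = 0.512, edgeR), and Stra6 60.4 and 11.3 CPM against 0.726 and 3.63 CPM (3.93 ± 1.64, adjusted p = 0.571, edgeR). These 3 genes were above the others in both mice and Aldh1a2, at 0.536 and 81.2 CPM against 40.0 and 167 CPM, was below in both, but none was called. Aldh1a1 and Cyp26b1 were also above, and Rbp4 also below, in both mice. How many of all genes kept 1 direction in both mice was not counted, so nothing is read from these shared directions. By edgeR 0 of 15063 genes were called, or 0%, and 0 of the 7 members tested, with 1471 genes and 1 member, Aldh1a3, at an unadjusted p under 0.05. DESeq2 called 1055 genes, among them Aldh1a3, Cyp26a1 and Stra6 higher and Aldh1a2 lower, so the call rests on the tool with 2 mice. No gene of the 3 lists was called among 16, 18 and 14 tested, with medians of -0.06, -0.33 and -0.44 for the metabolism, receptor and responsive lists beside -0.03 for all genes. Btg2 held 268 and 381 CPM in valve cells against 498 and 659 CPM in the others (-0.83 ± 0.21, adjusted p = 0.392, edgeR).

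The last comparison set pericyte-like against smooth muscle-like cells in mice 1 and 2. Of 14374 genes 2.23% were called, 0.939% higher and 1.29% lower, and 3 of the 9 members were tested, of which edgeR called 0 and DESeq2 called Rbp4. Rbp4 held 0.334 and 0.647 CPM in pericyte-like cells against 75.2 and 35.3 CPM in the smooth muscle-like class (log2 change -6.98 ± 2.12 SE, adjusted p = 0.19, edgeR), and was the 1 member at an unadjusted p under 0.05. Rdh5, a retinol dehydrogenase gene, was higher at 538 and 546 CPM in pericyte-like cells against 159 and 103 CPM in the smooth muscle-like class (2.05 ± 0.38, adjusted p = 0.0218, edgeR). Dhrs3, which returns retinaldehyde to retinol, was lower at 38.5 and 7.11 CPM against 256 and 250 CPM (-3.88 ± 0.75, adjusted p = 0.0281, edgeR). Tgm2, a transglutaminase gene and known retinoic acid target, was lower at 41.9 and 37.5 CPM against 694 and 602 CPM (-4.06 ± 0.40, adjusted p = 6.17e-04, edgeR). The metabolism list had 1 of 14 genes higher, the receptor list 0 of 18 in either direction, and the responsive list 0 of 17 higher, with medians of -0.60, 0.25 and -1.24 beside -0.49 for all genes. Dhrs3 stands in both the metabolism and the responsive list.

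Genes whose levels followed the members most closely were sought over 26 sums of class and mouse, which share libraries and the contrast between classes, by Pearson's r of log2(CPM + 1). Cyp26a1 was followed by Clec3a (0.980), Chil1 (0.971), Npy (0.948), Col11a1 (0.916) and Uts2r (0.914). Crabp1 was followed by Frmd3 (0.993) and Gm36944 (0.988), and Aldh1a3 by Cdh19 (0.896) and Lgi4 (0.893). Aldh1a1 was followed by Gpm6b (0.930), Rbp4 by Adamts6 (0.925) and Cpz (0.919), Stra6 by 5930412G12Rik (0.833) and Aldh1a2 by Rtl3 (0.795). Among the members themselves the closest pairs were Aldh1a3 with Crabp1 (0.723), Aldh1a1 with Aldh1a3 (0.711) and Cyp26a1 with Stra6 (0.529). Cyp26b1 and Crabp2 were too low for this search.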

How the data were processed

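Single-cell Smart-Seq2 libraries of 1307 mouse heart cells were read from a table of raw read counts per gene that the authors deposited, 50476 to 811982 counts per cell. Subread with featureCounts, Bowtie and Bowtie2, and bcl2fastq are named in the submitters' processing notes beside the build GRCm38/mm10, and their order, versions and the strand setting are not given in the sources used here. Counts carry no molecular barcodes, and precision is limited by reads per class and mouse. Cells were clustered with scanpy 1.11.5 and leidenalg 0.10.2 (2000 variable genes, 1978 genes withheld, resolution 1), and Scrublet marked 7 cells as doublets, which were kept. Classes were named from markers. Cells were not filtered further. Members, lists and tests were chosen with earlier results of these data known. Reads were summed per mouse and class where both classes had 10 or more cells, and tested with edgeR 4.0.16 (TMM, filterByExpr, robust quasi-likelihood) under R 4.3.3, each mouse being a block, since the classes come from the same animals. Same-mouse deviations correlated at 0.108 to 0.171 for fibroblast-like and smooth muscle-like cells and at 0.044 to 0.086 for Schwann-like and fibroblast-like cells. Adjusted p-values are Benjamini-Hochberg over all genes tested. The SE of a log2 change is its size divided by the square root of F. The edgeR step was tested on simulated data. Each sum is 1 animal. The named genes were all 9 members, up to 4 called genes of each list in a comparison with the lowest adjusted p, at most 2 uncalled genes with the highest mean CPM, and the 5 genes most like each member, of which a part is printed. One gene of these lists, and the counts of lower genes that hold it, are not reported here, and list medians include it. Tried alternatives were DESeq2 1.42.0, other size factors, filters, cell cutoffs and clusterings, and leaving out each mouse; counts under 5 reads set to 0 and valve cells as the fibroblasts were added after the data were seen. The mesothelial comparison had 1 mouse with 3 cells and was not tested. Promoter sequences are from RefSeq GRCm38.p6.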

Additional observations from a re-analysis of the deposited data

Results flagged for a closer look

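Of the 11 cells from mice with few cells, which entered no comparison, 3 held member reads at a level above the limit that 0 reads allow. An unnamed cluster 9 cell of CSPG4dsRED mouse 1 had 11 reads of Aldh1a3 (196 CPM). A cell of endothelial-like cluster 0 from ACTA2GFP mouse 1 had 11 reads of Aldh1a1, and 1 such cell had 5 reads of Aldh1a1 and 5 reads of Aldh1a2. These ACTA2GFP cells carry 1 mouse number but different sex labels, so that they came from 1 animal is not certain. With single cells of single mice no comparison was made.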

How the results depend on the processing

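For valve fibroblast-like against other fibroblast-like cells, where 0 genes were called, the count was 9 with DESeq2's size factors, 1055 with DESeq2, 299 with all genes with a count, 27 with no replicate block, 7 with sums of 4 cells or more, 7 at the finer clustering and 79 with counts under 5 reads set to 0, and DESeq2 called 4 members. For fibroblast-like against smooth muscle-like cells the 861 genes became 3083 with DESeq2, 1306 with no replicate block, 567 with counts under 5 reads set to 0 and 201 to 883 without 1 mouse, and the 2 members became 5 with DESeq2 and 1 to 4 without 1 mouse. For Schwann-like against fibroblast-like cells the 508 genes became 2894 with DESeq2, 1833 with no replicate block, 281 with cells of at least 100000 counts and 2000 genes, and 313 to 573 without 1 mouse. The 4 members became 2 with those deeper cells, where mouse 2 did not enter, 1 with counts under 5 reads set to 0 and 1 to 4 without 1 mouse. For pericyte-like against smooth muscle-like cells the 320 genes became 1141 with DESeq2, 606 with all genes with a count, 93 with no replicate block, 192 with sums of 4 cells or more and 36 with counts under 5 reads set to 0, and DESeq2 called 1 member. The cause was not tested. The log2 change of Rbp4 between fibroblast-like and smooth muscle-like cells turned to -1.22 with valve fibroblast-like cells alone. Of 304 member log2 changes under alternatives, 269 kept direction and call, 18 gained a call, 16 lost one and 1 turned. Of 56 checks of member levels 55 stayed within the SD between mice. Most of these checks left out 1 mouse, which with so few mice cannot move a mean by more than that SD. Only taking the mean of each cell's own CPM could have shown a move, so the count says little about stability. Shares of cells with a read moved by more than their SD between mice in 22 of 32 checks. These checks took a cutoff of 5 reads or thinned the cells to 50000 reads, so shares depend on the read cutoff and on depth. The Aldh1a2 ratio of mesothelial to fibroblast-like cells ranged over 51.4 to 54.4, with the same 3 mesothelial cells in every setting. No setting took the fibroblast types apart, so the range does not cover the dependence of this ratio on their mix. Comparisons with 2 mice gave no test when 1 was left out. Sums under 10 cells and genes of few reads limit what can be seen.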
